A study of Homo sapiens with 8 samples.

Results

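The messages described here are ATF4, ATF5, DDIT3, CEBPB, PPP1R15A, PPP1R15B, IFRD1, IBTK and SLC35A4. They were chosen by gene name from the literature as mRNAs whose translation is controlled by upstream open reading frames when initiation factor eIF2 is phosphorylated, with CEBPB added, a transcription factor of the same network whose message carries an internal regulatory reading frame. The choice was made with earlier results of these data known. All 9 listed genes were found, each on 1 row, among the 12109 transcripts of the authors' deposited table.

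Human hepatic stellate cells were the source of all 8 libraries in the series. These vitamin A storing liver cells turn into matrix-producing myofibroblasts on injury, and are labelled here as a cell line named HSCs. RNA-seq and ribosome profiling, which reads the stretches of RNA shielded by ribosomes during nuclease digestion, were each made from cells given the control silencing RNA (dsi-control, genotype labelled WT) and from cells given one against LARP6 (dsiLARP6, genotype labelled LARP6 kd), with 2 libraries in each of the 4 groups. All cells were grown in DMEM with 10% FBS, and none of these libraries is labelled with a TGFb treatment. LARP6 is a La-related RNA-binding protein known for binding collagen messages, and the comparison addresses how its depletion shifts the translation of each message.

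The authors' deposited table gives 1 comparison per transcript. It holds no values for single libraries, and the values below therefore carry no replicate spread, standard error, interval or depth. Nothing in the labels states that replicates came from separate cultures, and the p-values may then cover only technical spread. Translation efficiency is footprints relative to RNA, on a log2 scale on which the typical transcript lies near 0. The knockdown efficiency and the log2 change are from the authors' deposited table, and the control efficiency was derived from them. A change in efficiency does not say whether footprints or RNA moved. Of 12 stellate cell markers the table lists 9, including ACTA2, COL1A1 and PDGFRB but not DES, LRAT or RGS5, beside 2 of 6 hepatocyte, 1 of 5 endothelial, 1 of 5 leukocyte and Kupffer cell and 3 of 4 biliary markers. LARP6 itself had a log2 change in efficiency of 0.07 (Benjamini-Hochberg adjusted p-value, q, of 0.981) in the authors' deposited table, a ratio that does not check the knockdown.

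When cells are short of amino acids or haem, or when proteins misfold or viruses replicate, one of several kinases phosphorylates eIF2, and the supply of the initiator complex drops. Most messages are then translated less. A small group is translated more, because ribosomes that have read a short upstream reading frame take longer to become competent again and so pass an inhibitory frame, or because they scan past an inhibitory start codon. ATF4 is the best known of them and drives the genes of the integrated stress response, among them DDIT3, which encodes the factor CHOP, and PPP1R15A, which encodes the phosphatase subunit that reverses eIF2 phosphorylation.

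The upstream reading frames are the feature that groups these messages, so the start sites are printed first. Sequences are from GENCODE release 29 transcripts on GRCh38, 5′ to 3′ on the strand of the message, with codon counts that leave out the stop. ATF4 and ATF5 both carry a frame of 3 codons followed by one of 59 codons that runs out of frame into the coding sequence. The transcript on the ATF4 row was not among the release 29 transcripts, so ATF4-202, another transcript of the gene, is shown. ATF4-202 has a further upstream frame of 1 codon, 258 bases before the coding start, which ATF5-201 lacks. Of the gene's 3 release 29 transcripts with a complete coding start, 2 hold both the 3-codon and the 59-codon frame. On ATF4-201 the start codon of the 59-codon frame opens one of 2 codons that ends before the coding start. In the short frames, capitals mark the start and stop codons:
ATF4 3-codon frame: gccaccATGgcgtatTAGgggcag
ATF5 3-codon frame: ccggccATGgctctgTAGcctcga

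Both short frames hold 3 codons, and each has a purine 3 bases before its start codon and a G just after it, the context that favours initiation. The ATF4 frame lies in exon 1 of ATF4-202 (chr22:39520642-39520665) and begins 196 bases before the coding start. The ATF5 frame lies in exon 1 of ATF5-201 (chr19:49929268-49929291) and begins 246 bases before it. The longer frames start as follows, with the start codon in capitals:
ATF4 59-codon frame: ggcttaagccATGgcgcttctc
ATF5 59-codon frame: tgctgcagccATGgagtcttcc

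The first base of the start codon of this 59-codon frame is at position 39520747 of chromosome 22 for ATF4 and 49929396 of chromosome 19 for ATF5, which is 97 and 124 bases before the coding start. The 59-codon frames end at base 83 of the ATF4 coding sequence and base 56 of the ATF5 coding sequence. The beginning of each coding sequence is printed with its own start codon and the out-of-frame stop codon of the 59-codon frame in capitals, to show where a ribosome on the upstream frame would end:
ATF4 coding sequence: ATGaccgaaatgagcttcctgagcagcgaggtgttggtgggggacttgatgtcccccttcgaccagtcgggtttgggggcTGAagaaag
ATF5 coding sequence: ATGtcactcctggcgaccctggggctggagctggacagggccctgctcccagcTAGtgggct

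The ATF4 stretch is chr22:39521446-39521534 and the ATF5 stretch is chr19:49930851-49930912, both in the plus strand and in exon 2 of their transcripts. For 5 of the other messages, the start of the longest upstream frame that ends before the coding start is given with the start codon in capitals, and for DDIT3 a second in-frame start codon is in capitals too:
DDIT3: tgagcgtatcATGttaaagATG
PPP1R15A: tgagggtgagATGaacgcgctg
PPP1R15B: ccccgccaggATGgaagtcgca
IFRD1: agagagaaacATGtatcgtttt
SLC35A4: ggcggggaagATGgcggatgac

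These frames hold 34 codons in DDIT3 (chr12:57520469-57520490, minus strand), 26 in PPP1R15A (chr19:48872544-48872565, plus strand) and 51 in PPP1R15B (chr1:204411631-204411652, minus strand). They hold 52 codons in IFRD1 (chr7:112450477-112450498, plus strand) and 103 in SLC35A4 (chr5:140564834-140564855, plus strand). All 5 sites lie in exon 1 of the transcript on the row, and all 5 have a purine 3 bases before the start codon. On DDIT3-201 a further frame of 73 codons starts 32 bases before the coding start and runs out of frame into it. IBTK-201 holds 5 upstream start codons, whose frames all end before the coding start, and the longest of them holds 42 codons. For IBTK the shortest frame, of 3 codons, is printed instead, in exon 2 (chr6:82240811-82240834, minus strand), with start and stop codons in capitals:
IBTK: gcaattATGgatattTAAaagggt

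CEBPB differs in layout. No ATG stands in its annotated leader of 300 bases, and the regulatory frame lies inside the annotated coding sequence, between the first in-frame start codon, which gives the long form of the protein, and the second, at codon 24. The stretch chr20:50191034-50191114 (plus strand, the gene's single exon) is printed with, in capitals, the first start codon, the start and stop of the out-of-frame inner frame, and the second in-frame start codon:
CEBPB: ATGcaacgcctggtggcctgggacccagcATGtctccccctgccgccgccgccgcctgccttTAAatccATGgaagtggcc

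The inner frame starts 29 bases after the first base of the coding sequence, holds 11 codons and ends 4 bases before the second in-frame start codon. The efficiency of CEBPB in the authors' deposited table is 1 value for the whole message and does not separate its protein forms, whose other in-frame start is at codon 199.

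**Figure D1:**
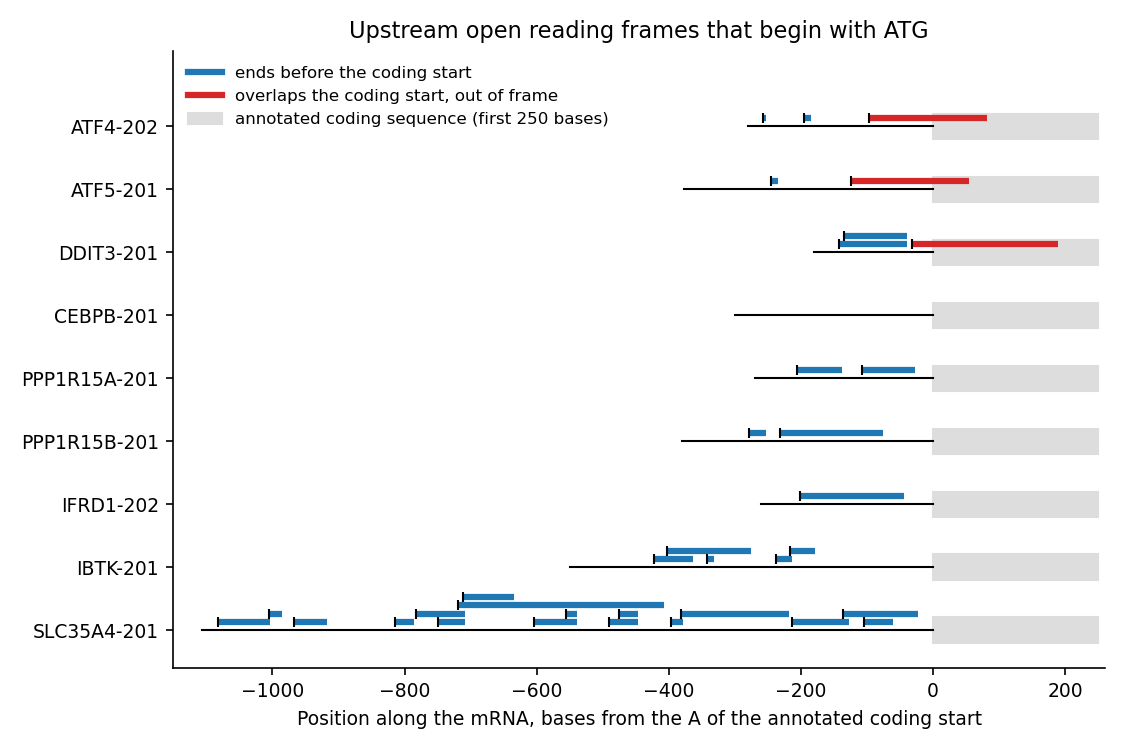
Upstream reading frames that begin with ATG on the transcripts of the 9 messages (ATF4-202 for ATF4), in bases from the A of the annotated coding start; black lines are leaders, ticks are start codons, blue frames end before the coding start and red frames run out of frame into it. ATF4, ATF5 and DDIT3 have a red frame, CEBPB has no upstream ATG and SLC35A4 has 17.

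ATF4 and DDIT3 were translated less efficiently after LARP6 knockdown and CEBPB more efficiently. The other 6 messages did not pass the threshold of 0.05 on q, the Benjamini-Hochberg adjusted p-value of the authors' deposited table. The 3 called members stand beside a background of 2.2% of all transcripts called in either direction (266 of 12109), 1.07% higher and 1.12% lower. Because the members, and the pathway lists further below, were chosen with earlier results known, their called shares are descriptions and not tests. The median log2 change of the 9 messages was −0.44 in the authors' deposited table, beside 0.02 for all transcripts, and 6 of the 9 lay below 0. At an unadjusted p of 0.05, which 10.3% of all transcripts reached in the authors' deposited table, the members past it were again these 3.

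ATF4, the transcription factor at the centre of the response (gene at chromosome 22, 39519695 to 39522685, plus strand), showed the largest change of the group. Its derived control log2 efficiency was 0.75, above 76.9% of all transcripts, and its knockdown log2 efficiency in the authors' deposited table was −0.98, above 18.2%. Relative to the typical transcript, its efficiency was 1.68-fold in the control and 0.506-fold in the knockdown. In the authors' deposited table, the log2 change was −1.73, a 3.32-fold fall, and had an q of 2.05e-14, the 14th smallest p-value of all transcripts. By size the ATF4 change ranked 177th among the lowest log2 changes in the authors' deposited table. GENCODE release 29 names 4 ATF4 pseudogenes, none of which has a row under that name. The sources used here do not give how reads shared with them were counted.

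DDIT3 encodes CHOP, a transcription factor linked to cell death under lasting stress (chromosome 12, 57516588 to 57521737, minus strand). It was among the more efficiently translated messages in the control, with a derived log2 efficiency of 1.37, above 90.3% of all transcripts. In the knockdown it was near the typical transcript, with a log2 efficiency of 0.15 in the authors' deposited table, above 55.5%. In the authors' deposited table it fell 2.33-fold, a log2 change of −1.22 with a q of 0.00736. DDIT3 overlaps genes of the opposite strand, among them MBD6, and the sources used here do not give whether strand was used in counting. On its own strand it overlaps MIR616 and the protein-coding AC022506.1, neither with a row under that name. How reads shared with them were counted is not given either.

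CEBPB encodes C/EBP-beta, a dimer partner of both factors (chromosome 20, 50190734 to 50192689, plus strand). Its derived control log2 efficiency was 0.51 and its knockdown log2 efficiency 1.09 in the authors' deposited table, which put it above 69.2% and 85.3% of all transcripts. In the authors' deposited table it rose 1.49-fold, a log2 change of 0.57 with a q of 0.00699. It overlaps CEBPB-AS1 on the opposite strand, with the same reservation on strand.

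ATF5 encodes a relative of ATF4 that also carries a 3-codon and a 59-codon upstream frame (chromosome 19, 49928702 to 49933935, plus strand). Its derived control log2 efficiency was −0.12 and its knockdown log2 efficiency −0.15 in the authors' deposited table, so that the values of both conditions lie close together near the typical transcript. The log2 change was −0.03 with a q of 0.983 in the authors' deposited table. ATF4 passed the test and ATF5 did not, but the difference between their changes was not tested. ATF5 overlaps genes of the opposite strand, among them NUP62, and MIR4751 on its own strand.

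The paired phosphatase subunits had log2 changes of opposite sign, and neither passed. PPP1R15A, the stress-induced subunit also called GADD34, had a derived control log2 efficiency of −0.78 and a knockdown value of −0.44 in the authors' deposited table. Its log2 change was 0.34 with a q of 0.785 in the authors' deposited table. PPP1R15B, the constitutive subunit also called CReP, had a derived control log2 efficiency of 0.14 and a knockdown value of −0.30 in the authors' deposited table. Its log2 change was −0.44 with a q of 0.799 in the authors' deposited table. Both encode proteins that bring a phosphatase to eIF2, and the difference between their changes was not tested.

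IFRD1, a transcriptional co-regulator, had the highest efficiency of the group in both conditions. Its derived control log2 efficiency was 1.87, and its knockdown value 1.26 in the authors' deposited table. In the authors' deposited table, its log2 change of −0.62 did not pass (unadjusted p = 0.0737, q = 0.585). This change is larger in size than that of CEBPB, which passed, so the size alone did not decide the calls. IFRD1 overlaps LSMEM1, a gene with protein-coding transcripts, on its own strand, and how reads shared with it were counted is not given.

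SLC35A4, a nucleotide-sugar transporter family member whose upstream frame of 103 codons is known to encode a small protein, had the lowest efficiency of the group in both conditions. Its derived control log2 efficiency was −0.96 and its knockdown value −1.49 in the authors' deposited table, the latter above 9.48% of all transcripts. The log2 change of −0.53 had a q of 0.797 in the authors' deposited table. The sources used here do not give whether footprints were counted over coding sequences or whole transcripts, so footprints on upstream frames may be part of the efficiency of SLC35A4 and of every other member. SLC35A4 also overlaps APBB3 on the opposite strand.

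IBTK, which encodes an inhibitor of Bruton's tyrosine kinase, had a derived control log2 efficiency of −0.31 and a knockdown value of −0.26 in the authors' deposited table. Its log2 change was 0.04 with a q of 0.989 in the authors' deposited table. IBTK overlaps the small RNA gene RNU6-130P on its own strand.

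**Figure D2:**
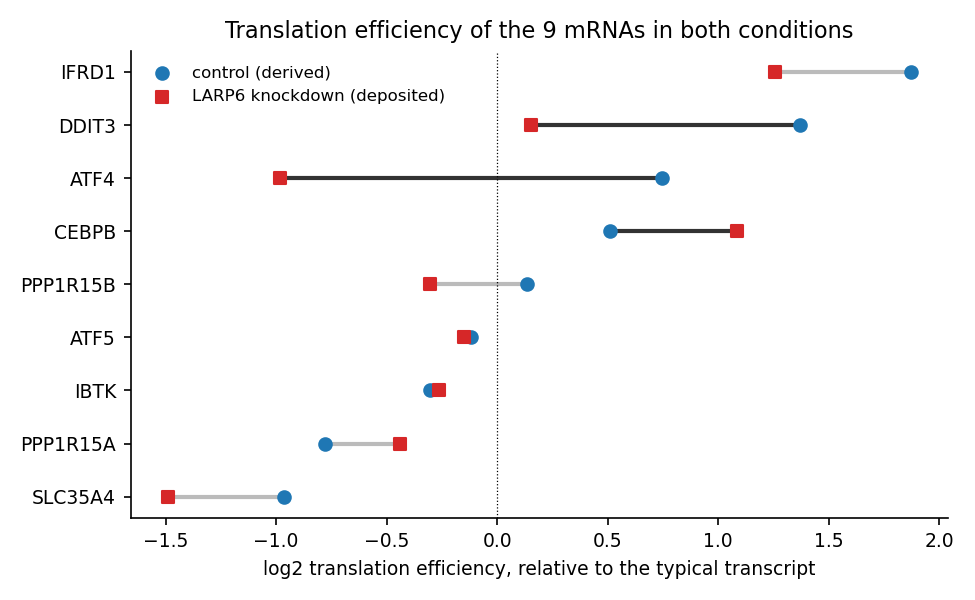
Log2 translation efficiency of the 9 messages relative to the typical transcript, with circles for the control (derived) and squares for the knockdown (deposited); dark lines join the values of the 3 messages past a q of 0.05. ATF4 goes from 0.75 to −0.98 and DDIT3 from 1.37 to 0.15, while CEBPB goes from 0.51 to 1.09.

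The order of the 9 messages by efficiency differed between the conditions. In the control the derived order from high to low was IFRD1, DDIT3, ATF4, CEBPB, PPP1R15B, ATF5, IBTK, PPP1R15A and SLC35A4, over a range of 2.84 log2 units. In the knockdown the order in the authors' deposited table was IFRD1, CEBPB, DDIT3, ATF5, IBTK, PPP1R15B, PPP1R15A, ATF4 and SLC35A4, over 2.75 log2 units. ATF4 was number 3 of the 9 in the control and number 8 in the knockdown, and CEBPB number 4 and number 2. IFRD1 stayed first and SLC35A4 last. Without values per library, which neighbours in these orders differ beyond their spread cannot be said.

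**Figure D3:**
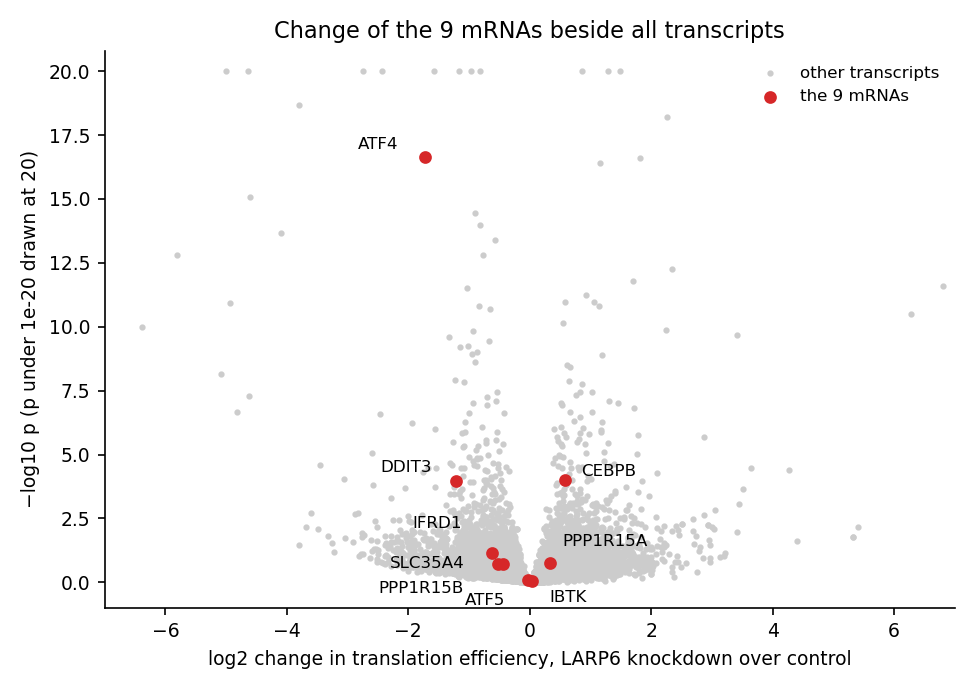
Log2 change in efficiency (x axis) against −log10 of the authors' final unadjusted p-value (y axis) for the 12109 transcripts, with the 9 messages in red; the 11 transcripts with a p under 1e-20 are drawn at 20. ATF4 lies apart from the other 8, DDIT3 and CEBPB follow on opposite sides of 0, and the remaining 6 lie near the base of the plot.

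The leaders were then set beside those of 10414 coding transcripts of the table for which release 29 gives a complete coding start. The motif searched was ATG on the strand of the message, overlapping frames included. At least 1 upstream ATG stood in 49.9% of these transcripts, and in 7 of the 8 members whose row transcript was matched. At least 2 stood in 27.8% of them and in 6 of the 8 members. An out-of-frame frame overlapping the coding start stood in 15.5% of them and in 2 of the 8 members, ATF5 and DDIT3. Members were named for such frames, so their share is a description of the choice.

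Among the members the leaders varied widely. The DDIT3 leader has 180 bases, against a median of 189 over the scanned transcripts, and its GC content of 47.8% is above only 4.95% of them. The SLC35A4 leader has 1107 bases, longer than in 99.0% of them, and 42 of the 10414 transcripts, itself included, hold its 17 upstream ATG triplets or more. The CEBPB leader is GC-rich at 73.7%, against a median of 67.6%. Upstream frames covered 76.1% of the DDIT3 leader and 83.6% of the SLC35A4 leader, but 36.1% of the ATF5 leader.

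Across transcripts, derived control efficiency was lower in classes with more upstream start codons, while median changes stayed within 0.04 of 0. The median derived control log2 efficiency was 0.11 for the 5217 transcripts with no upstream ATG, −0.12 for the 2297 with 1, −0.21 for the 1803 with 2 or 3 and −0.23 for the 1097 with 4 or more. The corresponding median log2 changes in the authors' deposited table were 0.04, 0.01, 0 and −0.04. The value of exactly 0 arises because 233 transcripts of the authors' deposited table, none of them a member, are listed with a change of 0. Called shares in these classes were 2.26%, 2.22%, 2.27% and 2.01% in the authors' deposited table. Transcripts with at least 1 upstream frame that ends before the coding start and at least 1 that overlaps it, as in ATF5 and DDIT3, numbered 886, of which the authors' deposited table calls 6 higher and 10 lower (1.81%). These values describe transcripts that also differ in leader length, from a median of 117 bases with no upstream ATG to 519 with 4 or more, and its part was not tested.

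**Figure D4:**
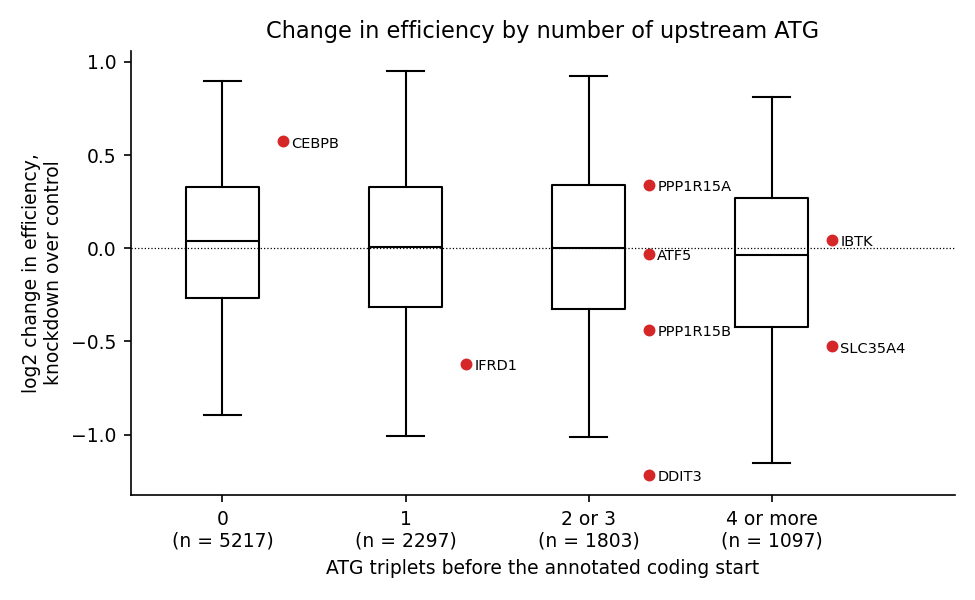
Log2 change in efficiency (y axis) of the 10414 scanned transcripts by the number of ATG triplets before the coding start (x axis); boxes show the quartiles and median, whiskers the 5th and 95th percentiles, and red points the 8 members with a matched transcript. The medians lie close together, from 0.04 to −0.04. The box runs from −0.27 to 0.33 with 0 upstream ATG and from −0.42 to 0.27 with 4 or more. DDIT3 at −1.22 lies below the whisker of its class.

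No gene of the first 4 pathway lists, which hold the machinery that acts on these messages, was called. Beside the 2.2% of all transcripts called, a count of 0 in lists this short does not set them apart from the background. None of 9 eIF2 kinases and their activators was called in the authors' deposited table (median log2 change −0.05, against 0.02 for all transcripts). The 2 with the largest log2 changes in the authors' deposited table were EIF2AK3, the endoplasmic reticulum kinase PERK, at 0.49 (q = 0.901), and PRKRA, an activator of the double-stranded RNA kinase, at 0.45 (q = 0.816). By unadjusted p, 0 of the 9 were under 0.05. Among the 8 subunits of eIF2 and of its exchange factor eIF2B, 0 were called and 0 had an unadjusted p under 0.05 in the authors' deposited table. The median was −0.03, with EIF2S2 at −0.43 and EIF2B2 at −0.32 in the authors' deposited table. These are efficiencies and not phosphorylation, which was not measured here.

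Factors of start codon selection and reinitiation, which decide whether a ribosome resumes after an upstream frame, were likewise not called. Of 13 measured, 0 passed and 0 had an unadjusted p under 0.05 in the authors' deposited table (median −0.03). The recycling factor ABCE1 stood at 0.98 on the log2 scale (q = 0.787) and the reinitiation factor DENR one of −0.80 (q = 0.959) in the authors' deposited table. Of the 7 phosphatase 1 subunits and partners, 0 were called and the median was 0.24 in the authors' deposited table. Under an unadjusted p of 0.05 were 2 of them, NCK1 and, named after its values were seen, the catalytic subunit PPP1CB, at −0.46 (q = 0.130) in the authors' deposited table. NCK1, an adaptor described as binding the eIF2 phosphatase, stood at −0.75 (q = 0.225) and PPP1R2 at 0.54 (q = 0.958) in the authors' deposited table.

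ATF4, CHOP and C/EBP-beta pair with other basic leucine zipper factors. Among 27 measured genes listed as such partners or as C/EBP relatives, including CEBPZ, a CCAAT-binding factor outside that family, the authors' deposited table has 2 higher and 2 lower (14.8% of the list, against the 2.2% background). JUN, a subunit of AP-1, rose by 1.02 on the log2 scale (q = 7.59e-06) and MAFF, a small MAF protein, by 0.87 (q = 0.0283) in the authors' deposited table. CEBPD, another C/EBP factor, fell by 1.17 (q = 0.0205) in the authors' deposited table, opposite to CEBPB. NFE2L2, the antioxidant regulator NRF2, fell by 0.61 (q = 0.0391) in the authors' deposited table. Their leaders hold 3 upstream ATG triplets each in JUN and MAFF, 2 in CEBPD and 0 in NFE2L2. The lowest change among all 133 measured pathway genes in the authors' deposited table was that of CEBPD, at −1.17, so ATF4 and DDIT3 lay below each of them.

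In the authors' deposited table, 2 of the 51 measured genes listed as induced by ATF4 or CHOP rose and 2 fell, or 7.84% called against 2.2% of all transcripts. Of the 51, 33 lay below 0, as did 5730 of all 12109 transcripts, and their median was −0.23 against 0.02 in the authors' deposited table. SQSTM1, an autophagy receptor, rose by 0.58 (q = 4.33e-09) and SLC3A2, the heavy chain of amino acid transporters, by 0.50 (q = 0.00115) in the authors' deposited table. SLC38A2, a neutral amino acid transporter, fell by 0.54 (q = 0.000183) in the authors' deposited table. DDR2, a collagen receptor kinase whose place on this list is doubtful, fell by 0.93 (q = 4.47e-08) in the authors' deposited table, and without it 2 of 50 rose and 1 fell. PSAT1 and ALDH18A1, enzymes of serine and proline synthesis, stood at −1.11 (q = 0.66) and −1.05 (q = 0.316) in the authors' deposited table. ATF4 and CHOP act on transcription, so these efficiencies do not measure their output, and RNA levels were not analysed here.

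Other messages described with regulatory upstream frames, measured for 11 of 12, had 0 called and a median of 0.06 in the authors' deposited table. AMD1, the polyamine enzyme whose upstream frame responds to polyamines, stood at 0.98 (q = 0.354) and VEGFA at 0.70 (q = 0.272), the 2 with an unadjusted p under 0.05 in the authors' deposited table. Of the 18 genes of the other arms of endoplasmic reticulum stress, 1 rose in the authors' deposited table, the chaperone complex member SDF2L1, by 1.02 (q = 0.0459). ATF6, the membrane-bound transcription factor of one of these arms, stood at −0.57 (q = 0.436) in the authors' deposited table. The median of these 18 was 0.06. Over the 8 lists together, the authors' deposited table has 5 of 133 genes higher and 4 lower (6.77%, against the 2.2% background), with a median of −0.04.

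**Figure D5:**
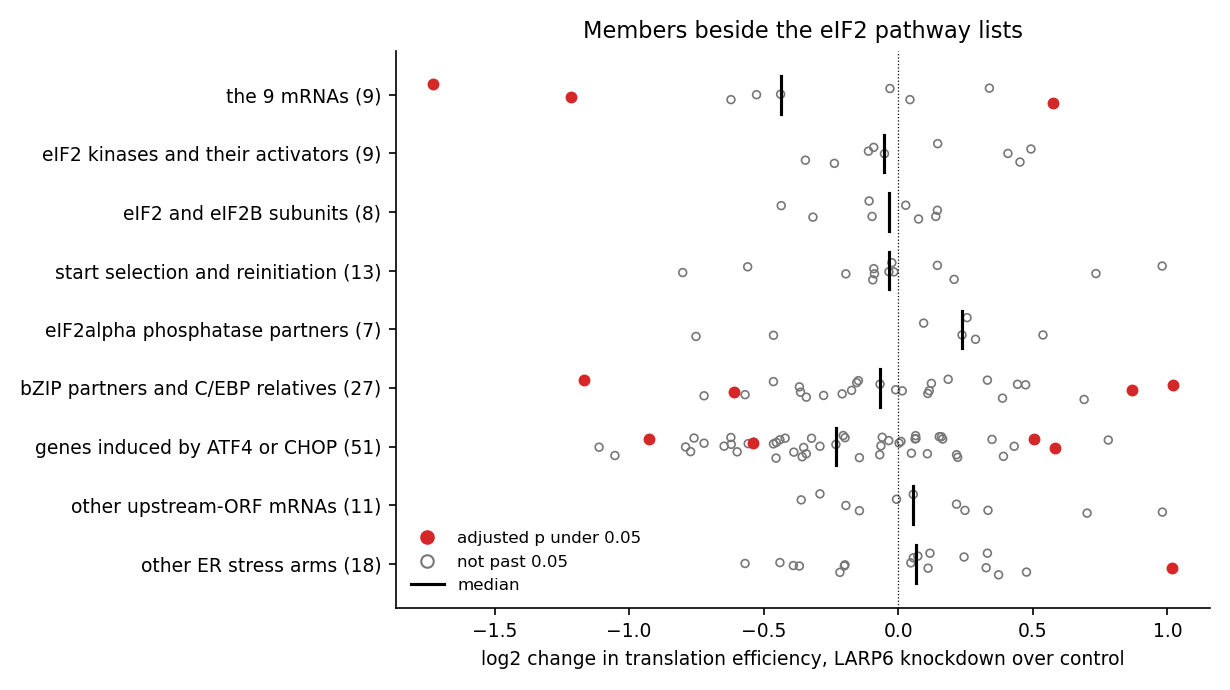
Log2 change in efficiency (x axis) of the 9 messages and of each measured gene of the 8 pathway lists (rows, with the number measured); filled red points passed a q of 0.05, open points did not, and black bars are medians. ATF4 and DDIT3 lie to the left of every pathway gene.

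Likeness to each called member was measured as the Euclidean distance over the 2 conditions, the derived control and the knockdown log2 efficiency. A transcript near a member in both conditions has a similar log2 change by construction, so the size of these changes is no further result. Nearest to ATF4 were ASAH2B, TCF7L2 and the pseudogene SLC25A38P1, at distances of 0.0739, 0.0840 and 0.105. Of these TCF7L2, a transcription factor of Wnt signalling, fell by 1.76 on the log2 scale (q = 0.00380) in the authors' deposited table. In the authors' deposited table ASAH2B stood at −1.80 with a q of 0.877, so a change as large as that of ATF4 went with very different p-values. Nearest to DDIT3 were TMEFF1, SHISA4 and HOXC4, at distances from 0.0171 to 0.0585, of which SHISA4 fell by 1.16 (q = 0.0166) in the authors' deposited table. COQ4, PDE1A and HS1BP3 lay nearest to CEBPB, at distances from 0.0239 to 0.0370, with log2 changes from 0.55 to 0.61 in the authors' deposited table and q of 0.603 or above.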

How the data were processed

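RNA-seq and ribosome profiling libraries of hepatic stellate cells were compared by the authors. For profiling, per the labels' protocols, cells received cycloheximide (100 µg/mL, 1 min) and lysates were digested with 250 U of RNase I for 45 min; the effect of cycloheximide on footprints upstream of coding starts was not tested. Tools named in the submitters' processing notes are Bowtie and cutadapt, with hg38 and GRCh38 as builds; the sources used here give no version, counting region, strand use or comparing program. Per the file headers, the deposited values are log2 changes of efficiency from 2 methods and a final one, the knockdown's log2 efficiency, and each p-value. In all 12109 rows the deposited final p-value is the larger one of both methods (relative tolerance 1e-09), and the adjusted one (q) follows Benjamini-Hochberg to within 6.3e-15.

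The control log2 efficiency was derived as the knockdown value minus the second method's log2 change. Where the final change comes from the first method, both values differ from it slightly. Calls use a q of 0.05 over all rows. Rows were matched to GENCODE 29 (GRCh38) by 6 digits of the transcript identifier (11590 of 12109; 8 of 9 members, all with the same symbol). Upstream frames run from ATG to the first in-frame TAA, TAG or TGA. The scan and the adjustment were tested on simulated data (Python 3.11.15, pandas 2.3.3).

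Members and lists were chosen with earlier results of these data known. Named are the members, LARP6, called genes of each list and the 2 largest changes in it, and the 3 nearest transcripts to each called member. Alternatives were other thresholds, a 2-fold minimum, each method alone, re-centring and other transcripts of the members. No counts per library were at hand, so no count model was fitted.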

Additional observations from a re-analysis of the deposited data

How the results depend on the processing

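The 3 called members stayed called, with their direction, at an adjusted p of 0.01, and a 2-fold minimum left ATF4 and DDIT3. They were also called at 0.10, by each method alone and after re-centring on the median of all transcripts. Those settings could not remove a call. A q under 0.05 is also under 0.10, the final p-value is the larger one of both methods, and re-centring kept the deposited q. All 27 member log2 changes under each method alone or re-centred kept their sign, with at most 0.00825 between the methods, which are not independent. Pathway genes called fell from 9 to 5 at an adjusted p of 0.01 and to 3 with a 2-fold minimum. Over all transcripts, a 2-fold minimum gave 110 calls and the first method alone 457, against 266. Across release 29 transcripts with a complete coding start, the number of upstream ATG ranged from 3 to 7 in ATF4, 2 to 6 in ATF5 and 2 to 5 in DDIT3. It ranged from 1 to 12 in IFRD1, 0 to 5 in IBTK and 0 to 20 in SLC35A4. Among these transcripts, the 59-codon frame of ATF4 is on 2 of 3, and 2 of 6 DDIT3 transcripts have an overlapping frame. No paired analysis was possible because values per library were not at hand; leaving out replicates was not run for the same reason. Depth is unknown, so which members were too shallow to be called cannot be said.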
